A study of Homo sapiens with 8 samples.

Results

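The transcripts of 10 enzymes that write or erase methyl groups on histones and DNA were measured in HSC-5 cells, a human line of cutaneous squamous cell carcinoma, after Cas9 had been directed to EZH2. The 10 were KDM6A, KDM6B, KMT2C, KMT2D, NSD1, NSD2, EHMT2, DNMT1, DNMT3A and DNMT3B, taken by symbol from a table of 20294 genes. All 10 symbols were found, and all 10 passed the filter on low counts that left 13124 genes. The libraries formed 3 groups: sgEZH2-1 with 3 libraries, sgEZH2-2 with 3 libraries, and Control, which carried an empty vector, with 2. Whether the control cells also expressed Cas9 is not stated outright; if they did not, Cas9 and the guides cannot be told apart in any comparison with Control. Per the design text, the guides were given by transduction to cells that stably expressed Cas9, carriers were selected with G418, loss of EZH2 protein was checked by western blot, and 1 control that clustered apart had been left out. The labels speak of neither clones nor separate cultures. The p-values therefore cover the spread among these libraries alone, and that spread may be technical.

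EZH2 is the enzyme within Polycomb repressive complex 2 (PRC2). It puts methyl groups on histone H3 at lysine 27 (H3K27), a mark of silent genes. KDM6A and KDM6B remove that mark. KMT2C and KMT2D methylate lysine 4 of H3 (H3K4) at enhancers, NSD1 and NSD2 methylate lysine 36 (H3K36), a mark that hinders PRC2 on the same tail, and EHMT2 methylates lysine 9 (H3K9), a repressive mark. DNMT1 copies DNA methylation after replication, while DNMT3A and DNMT3B set it anew. Mutations of KMT2C, KMT2D and KDM6A are known from squamous carcinomas.

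Levels are given as CPM, the counts of a gene scaled to a common library total. Library totals were 12900023 to 14724566 counts with sgEZH2-1, 12607952 to 14257843 with sgEZH2-2 and 14299479 to 15468597 in Control. The targeted transcript, EZH2, was at 56.4, 56.3 and 48.0 CPM with sgEZH2-1 and at 73.8, 67.5 and 65.1 CPM with sgEZH2-2, against 82.7 and 84.1 CPM in Control. All 6 guide libraries were below both controls, and the sgEZH2-1 libraries were lowest. Of 13 PRC2 genes, EZH2 included, 1 rose (EED) and 3 fell (EZH2, RBBP4 and RBBP7) with sgEZH2-1. With sgEZH2-2, 0 passed in edgeR. This and the called markers below stand beside 11.3% of all tested genes called higher and 9.51% lower with sgEZH2-1. With sgEZH2-2 the shares were 6.18% higher and 2.5% lower. Of 14 keratinocyte markers all 14 passed the filter on low counts, with KRT5 at 1870 CPM with sgEZH2-1, 1577 with sgEZH2-2 and 2028 in Control, but KRT14 stood at only 0.618, 0.796 and 0.474 CPM in the same order. With sgEZH2-1, 3 of the 14 rose (KRT6A, KRT17 and CDH1) and 2 fell (TP63 and COL17A1), with log2 fold changes of all 14 between -1.01 and 0.82. With sgEZH2-2, 0 rose and 5 fell (KRT5, DSG3, DSC3, PKP1 and CDH1). Their summed level was 4102 to 4698 CPM with sgEZH2-1 and 4165 to 4234 CPM with sgEZH2-2, against 4730 to 4785 CPM in Control. All 6 guide libraries were thus below both controls, the third sgEZH2-1 library narrowly. Of all tested genes, taken singly, 9.78% lay below both controls in this way. KRT5, a large part of the sum, was not called with sgEZH2-1. Summed fibroblast markers were at 5.02 to 8.89 CPM with sgEZH2-1, 11.04 to 13.99 with sgEZH2-2 and 6.13 to 7.24 in Control, and COL1A2 and POSTN had 0 counts in every library. COL1A1, the 1 fibroblast marker that passed the filter, rose with sgEZH2-2 (log2 fold change 0.88, adjusted p = 0.0437 in edgeR) and was at -0.01 with sgEZH2-1. Between the guides COL1A1 was called lower with sgEZH2-1, at -0.89. Summed leukocyte markers were at 14.4 to 18.8, 11.8 to 13.9 and 14.3 to 14.7 CPM, and CD3E, CD3D and MS4A1 had 0 counts. Endothelial sums (1.98 to 2.73, 3.30 to 4.73 and 3.85 to 4.19 CPM) and melanocyte sums (30.5 to 33.0, 27.8 to 29.7 and 28.9 to 30.8 CPM) were low, with KDR, TYR, DCT and SOX10 at 0 counts. Their part in the results was not tested. In such bulk RNA, fewer cells of a type and less RNA per cell cannot be told apart.

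Of the 10 transcripts, 7 passed no test in any comparison. With sgEZH2-1, 1 of 10 passed the test against Control, the H3K9 methyltransferase gene EHMT2, which was lower; 20.8% of all tested genes were called, 11.3% higher and 9.51% lower. With sgEZH2-2, 0 of 10 passed, where 8.68% of all genes were called (6.18% higher and 2.5% lower), and DESeq2 called 0 as well. DNMT3A was the 1 member with an unadjusted p under 0.05 there, beside 22.6% of all genes. With both guides pooled 0 of 10 passed, where 4.36% of all genes were called (3.76% higher and 0.594% lower), and DESeq2 called 0. KMT2D was the 1 member with an unadjusted p under 0.05 there, beside 15.9% of all genes. Set against each other, the guides differed at 2 of 10, KDM6B and DNMT3A, both lower with sgEZH2-1 than with sgEZH2-2. Of all genes 21.9% were called there (10.4% higher and 11.5% lower). Between the guides KDM6B, EHMT2 and DNMT3A had an unadjusted p under 0.05, beside 36.7% of all genes. With sgEZH2-1 against Control it was KMT2D and EHMT2, beside 34.4%. All p-values come from the quasi-likelihood test of edgeR, two-sided, adjusted by Benjamini-Hochberg over all 13124 genes, with a threshold of 0.05. The median log2 fold change of the 10 was -0.06 with sgEZH2-1 and -0.05 with sgEZH2-2, beside -0.01 and 0.00 over all genes.

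**Figure D1:**
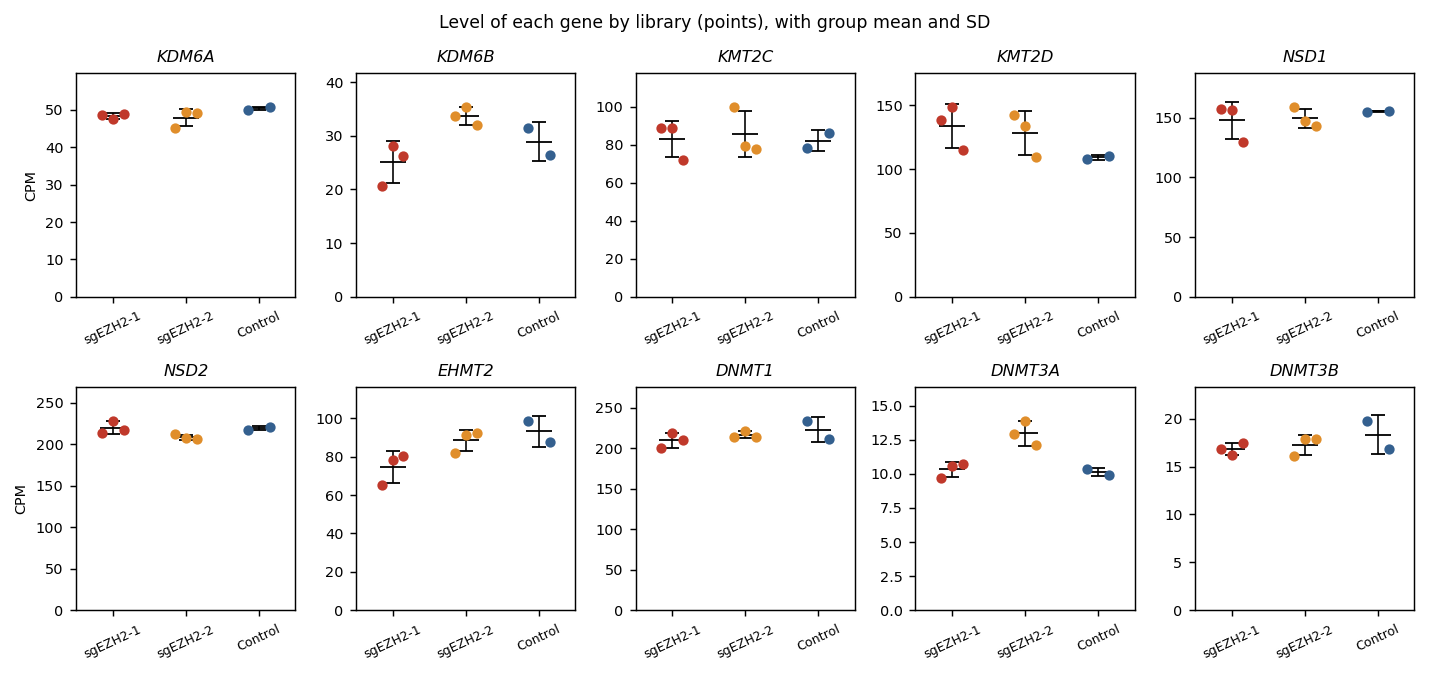
Level of each of the 10 genes in CPM (vertical axes from 0) in every library (points), with the group mean and SD (bars; n = 3, 3 and 2). KDM6B and DNMT3A are higher in each sgEZH2-2 library than in each sgEZH2-1 library, and EHMT2 is lower in each sgEZH2-1 library than in both controls.

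The promoter sequences of the 3 genes with a call are given here, from RefSeq on GRCh38.p14, as 300 bases, of which 250 precede the annotated start and 50 follow it. KDM6B is shown at both of its annotated starts, and DNMT3A at the outermost of its 6. Capitals mark any match, on either strand, to the CCAAT box, to the GC box GGGCGG, or to the E2F-type words TTTCCCGC or else TTTGGCGC; matches can share bases.
KDM6B, upstream start, chr17:7833967-7834266, plus strand: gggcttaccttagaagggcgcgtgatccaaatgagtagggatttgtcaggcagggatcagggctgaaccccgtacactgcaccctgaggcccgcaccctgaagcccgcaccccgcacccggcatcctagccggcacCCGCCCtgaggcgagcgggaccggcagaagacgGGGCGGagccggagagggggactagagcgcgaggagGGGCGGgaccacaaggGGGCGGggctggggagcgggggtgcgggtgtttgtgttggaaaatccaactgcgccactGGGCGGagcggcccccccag
KDM6B, downstream start, chr17:7839667-7839966, plus strand: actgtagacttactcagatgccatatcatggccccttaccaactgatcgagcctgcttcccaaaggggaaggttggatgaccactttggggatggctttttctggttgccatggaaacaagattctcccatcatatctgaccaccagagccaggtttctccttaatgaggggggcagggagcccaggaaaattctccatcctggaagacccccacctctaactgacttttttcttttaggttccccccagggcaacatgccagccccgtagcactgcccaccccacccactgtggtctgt
EHMT2, chr6:31897649-31897948, minus strand: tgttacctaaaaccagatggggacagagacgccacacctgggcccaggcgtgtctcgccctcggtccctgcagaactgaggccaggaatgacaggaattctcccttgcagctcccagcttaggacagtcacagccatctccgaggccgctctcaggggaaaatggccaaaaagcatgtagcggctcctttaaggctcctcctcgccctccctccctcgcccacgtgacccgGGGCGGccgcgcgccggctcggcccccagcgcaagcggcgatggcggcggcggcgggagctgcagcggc
DNMT3A, chr2:25342541-25342840, minus strand: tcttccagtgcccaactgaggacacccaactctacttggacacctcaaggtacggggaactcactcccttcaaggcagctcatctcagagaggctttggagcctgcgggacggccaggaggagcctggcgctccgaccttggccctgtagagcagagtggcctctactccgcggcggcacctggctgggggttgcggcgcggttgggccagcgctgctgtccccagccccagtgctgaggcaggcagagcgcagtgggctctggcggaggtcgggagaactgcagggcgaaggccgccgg
The upstream start of KDM6B has 5 GC boxes and 24 CpG dinucleotides, while the downstream one has 0 GC boxes and 2 CpG. EHMT2 has 1 GC box and 25 CpG. The window of DNMT3A shown has 0 of the 4 words and 18 CpG, while 4 of the other 5 windows of DNMT3A hold 2 to 4 GC boxes, with 18 to 46 CpG over those 5. Over all 20 windows of the 10 genes, 15 held the GC box and 5 the CCAAT box, which 45% and 34.6% of the 35116 windows in the table did. The first E2F-type word was in 1 and the second in 0, beside 1.63% and 0.652% of all windows. The medians of these 20 windows were 70.5% GC and 26 CpG, beside 58.67% GC and 14 CpG over all windows. The words were not counted against windows of like GC content. Windows of 1 gene overlap in part, so they are not separate counts.

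Per kilobase of annotated exon, the 10 genes spanned a wide range in a similar order in the 3 groups. DNMT1 led with 21.5 ± 0.962 CPM per kb with sgEZH2-1, 22.1 ± 0.453 with sgEZH2-2 and 22.8 ± 1.61 in Control (SD, n = 3, 3 and 2). DNMT3A was lowest with 0.861 ± 0.0447, 1.08 ± 0.0748 and 0.843 ± 0.0269 CPM per kb in the same order of groups. In each group DNMT1 lay above and DNMT3A below every other member in every library. Next to DNMT1 came EHMT2 at 10.2, 12.1 and 12.8 CPM per kb, NSD2 at 11.1, 10.5 and 11.1, and NSD1 at 9.53, 9.64 and 10.0. In Control and with sgEZH2-2 EHMT2 stood above NSD2 in every library. With sgEZH2-1 NSD2 had the higher mean and the ranges of NSD2 and EHMT2, and of EHMT2 and NSD1, overlapped. KDM6A followed with 6.78, 6.72 and 7.06 CPM per kb and KMT2D with 6.53, 6.27 and 5.33; their ranges overlapped with each guide but not in Control. KMT2C, KDM6B and DNMT3B lay between 3.45 and 4.64 CPM per kb as group means, and neighbours among them overlapped in every group. Divided by the longest annotated transcript instead, NSD2 stood above EHMT2 in all groups (24.3 against 21.4 CPM per kb with sgEZH2-2, 25.6 against 22.6 in Control), so the order of these 2 depends on the length used. With sgEZH2-2 the means of KDM6B and KMT2C changed order too, at 4.64 against 4.26 by exon length and 5.02 against 5.08 by longest transcript.

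**Figure D2:**
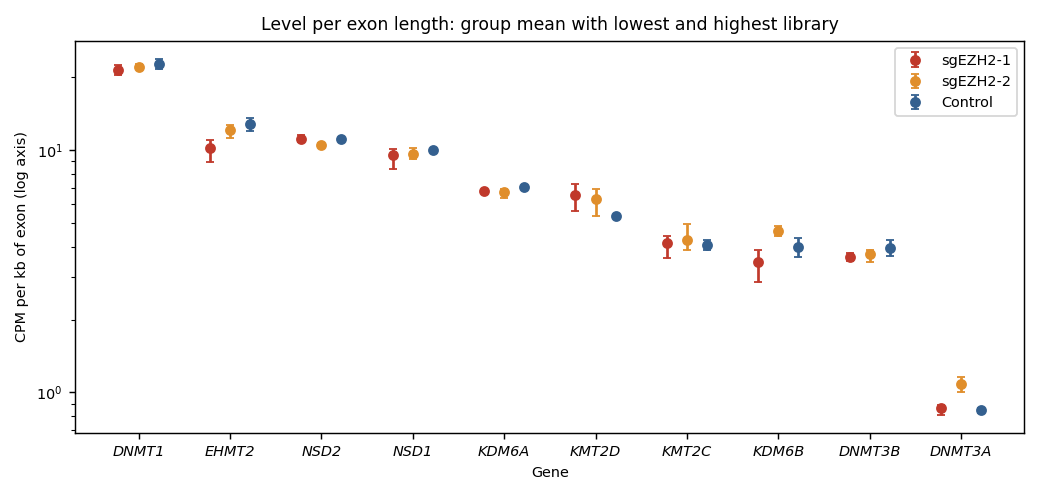
Level per kilobase of annotated exon (log axis) for each gene, as the group mean with the lowest and highest library. DNMT1 is highest and DNMT3A lowest in all 3 groups, and with sgEZH2-2 KDM6B lies above DNMT3B without overlap.

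Neither H3K27 demethylase passed the test against Control. KDM6A (chromosome X, 44873177 to 45112602, plus strand, GRCh38), the demethylase with tetratricopeptide repeats also called UTX, was at 48.7, 47.5 and 49.0 CPM with sgEZH2-1 and 45.3, 49.4 and 49.3 CPM with sgEZH2-2, against 50.1 and 50.7 CPM in Control. All 6 guide libraries lay below both controls, by a narrow margin, which was so for 9.78% of all tested genes. The log2 fold change was -0.06 with sgEZH2-1 (95% interval -0.21 to 0.09, adjusted p = 0.574 in edgeR) and -0.07 with sgEZH2-2 (-0.22 to 0.07, adjusted p = 0.578). The group means of KDM6A came to 96.0% and 95.2% of Control. UTY, its paralog on the Y chromosome, stood at -0.14 with sgEZH2-1 (log2 fold change, adjusted p = 0.283 in edgeR) and -0.05 with sgEZH2-2 (adjusted p = 0.800), and reads of the 2 paralogs can be hard to tell apart.

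KDM6B (chromosome 17, 7839904 to 7854796, plus strand), the inducible demethylase also called JMJD3, was the member whose group means lay farthest apart on the log2 scale. It was at 20.7, 28.2 and 26.3 CPM with sgEZH2-1 and 33.7, 35.3 and 32.1 CPM with sgEZH2-2, against 31.4 and 26.4 CPM in Control. The sgEZH2-2 libraries were above both controls and above all sgEZH2-1 libraries, while the sgEZH2-1 libraries overlapped the controls. Against Control the log2 fold changes had opposite signs, -0.20 with sgEZH2-1 (-0.48 to 0.08, adjusted p = 0.294 in edgeR) and 0.22 with sgEZH2-2 (-0.06 to 0.50, adjusted p = 0.340). The guides differed, with a log2 fold change of -0.42 for sgEZH2-1 over sgEZH2-2 (SE 0.11, -0.68 to -0.17, adjusted p = 0.0245 in edgeR), or 0.746 times. The call was lost without the second sgEZH2-2 library (adjusted p = 0.0877) and without the third (adjusted p = 0.0565), and adjusted p over the 13 alternatives ran from 0.0108 to 0.0877.

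As a ratio within each library, KDM6A stood at 0.864, 0.844 and 1.02 times the CPM of EZH2 with sgEZH2-1 and at 0.613, 0.731 and 0.758 times with sgEZH2-2, against 0.606 and 0.603 times in Control. All 6 guide libraries were higher than both controls, with the first sgEZH2-2 library close to them. An exact permutation test of the mean of 6 guide libraries against 2 controls gave p = 0.107, two-sided, where 0.0357 is the smallest p this design allows. The ratio of KDM6B to EZH2 was 0.367, 0.501 and 0.548 with sgEZH2-1 and 0.456, 0.523 and 0.493 with sgEZH2-2, against 0.380 and 0.314 in Control (exact permutation p = 0.0714, two-sided). Both ratios were chosen after values were seen, and both contain the fall of EZH2 itself, so a rise was largely built in. The permutation tests therefore say nothing about the demethylases, and they treat libraries of both guides as alike. No length enters the ratios.

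Neither H3K4 methyltransferase of enhancers passed the test with all libraries, and KMT2D was not tested against KMT2C. KMT2D (chromosome 12, 49018975 to 49059774, minus strand) was at 138, 148 and 115 CPM with sgEZH2-1 and 142, 134 and 109 CPM with sgEZH2-2, against 108 and 111 CPM in Control. The sgEZH2-1 libraries were all above both controls, and with sgEZH2-2 the third library lay between them. The means were 134 ± 17.2 with sgEZH2-1 and 128 ± 17.2 with sgEZH2-2, against 109 ± 1.97 in Control (SD, n = 3, 3 and 2). The log2 fold change was 0.29 with sgEZH2-1 (0.02 to 0.56, adjusted p = 0.117 in edgeR) and 0.23 with sgEZH2-2 (-0.04 to 0.50, adjusted p = 0.290). Pooling the guides gave 0.26 (adjusted p = 0.295). Without the third sgEZH2-1 library, the one of its group nearest to the controls, KMT2D passed against Control, at 0.41 (adjusted p = 0.0334 in edgeR). Over the 13 alternatives for sgEZH2-1 the adjusted p ran from 0.0334 to 0.340. KMT2C (chromosome 7, 152134922 to 152436005, minus strand) was at 88.6, 88.6 and 72.1 CPM with sgEZH2-1 and 99.7, 79.3 and 77.8 CPM with sgEZH2-2, against 78.2 and 86.0 CPM in Control. The groups overlapped throughout, with log2 fold changes of 0.02 (-0.25 to 0.29) and 0.06 (-0.21 to 0.33). Parts of KMT2C have near-identical copies elsewhere in the genome, so its count is uncertain.

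KMT2C, KMT2D and NSD1 have long transcripts, and in the third library of each guide group all 3 were lowest of their group. Among the 273 tested genes whose longest annotated transcript has at least 12000 bases, these 3 included, the median log2 CPM over the control mean was 0.17, 0.08 and -0.001 in the sgEZH2-1 libraries and 0.13, 0.05 and 0.0005 in the sgEZH2-2 libraries, against -0.04 and 0.04 in Control. In the same libraries KMT2D stood at 0.34, 0.44 and 0.07 with sgEZH2-1 and 0.38, 0.29 and 0.0005 with sgEZH2-2, against -0.02 and 0.02 in Control. The third library of each guide was thus lowest within its group both for long transcripts as a class and for KMT2D. For long transcripts as a class, however, the third libraries lay between the controls. It was the first and second libraries of each guide that lay above both controls, the first ones farthest. Genes with shorter transcripts had medians between -0.009 and 0.005 in all 8 libraries. The part of transcript length in the values of KMT2C, KMT2D and NSD1 was not tested.

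**Figure D3:**
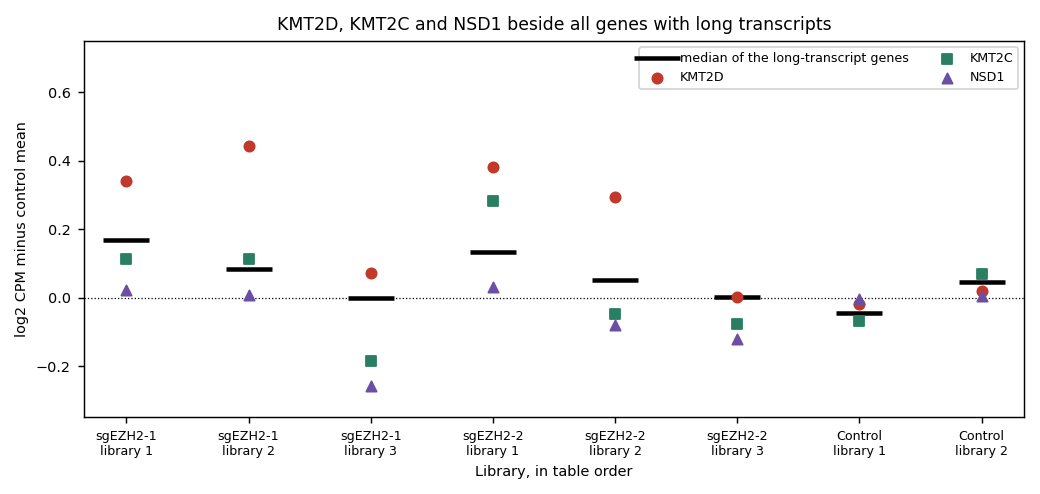
Log2 CPM minus the mean of the controls in each library, for KMT2D, KMT2C and NSD1 (symbols) and as the median of the 273 genes with long transcripts (black bars). Within each guide group the third library is lowest for all 4, and KMT2D lies above the black bar in every guide library except the third of sgEZH2-2, where both are near 0.

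The H3K36 methyltransferases NSD1 and NSD2 did not pass any comparison. NSD2 (chromosome 4, 1871424 to 1982207, plus strand), which sets dimethylation of H3K36, was at 214, 228 and 217 CPM with sgEZH2-1 and 212, 207 and 207 CPM with sgEZH2-2, against 218 and 221 CPM in Control. The sgEZH2-2 libraries lay below both controls and below all sgEZH2-1 libraries. The log2 fold change was 0.0023 with sgEZH2-1 (-0.11 to 0.11) and -0.07 with sgEZH2-2 (-0.18 to 0.04, adjusted p = 0.430 in edgeR), the narrowest intervals among the 10 genes. NSD1 (chromosome 5, 177133025 to 177300215, plus strand) was at 157, 156 and 130 CPM with sgEZH2-1 and 159, 147 and 143 CPM with sgEZH2-2, against 155 and 155 CPM in Control. Only the first 2 sgEZH2-1 libraries and the first sgEZH2-2 library reached the controls. Its log2 fold changes were -0.07 (-0.26 to 0.12) and -0.05 (-0.24 to 0.13).

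EHMT2, also called G9a (chromosome 6, 31879759 to 31897687, minus strand), was at 65.1, 78.2 and 80.6 CPM with sgEZH2-1 and 82.0, 91.2 and 92.3 CPM with sgEZH2-2, against 98.8 and 87.5 CPM in Control. All sgEZH2-1 libraries were below both controls and below all sgEZH2-2 libraries, and the sgEZH2-2 libraries overlapped the controls. EHMT2 fell to 74.6 ± 8.34 CPM with sgEZH2-1 (SD, n = 3), 80.1% of the 93.2 ± 7.98 CPM in Control (SD, n = 2). Its log2 fold change was -0.32 (SE 0.10, -0.54 to -0.10, adjusted p = 0.0433 in edgeR). With sgEZH2-2 the log2 fold change was -0.07 (-0.29 to 0.14, adjusted p = 0.716). Between the guides it was -0.24 (-0.44 to -0.05, adjusted p = 0.0725), so a difference between the guides was not called. The call with sgEZH2-1 held in 7 of 13 alternatives: it was lost without the first control (adjusted p = 0.280), the first or the second sgEZH2-1 library (adjusted p = 0.0769 and 0.0710), the second or the third sgEZH2-2 library (adjusted p = 0.0597 and 0.0657), and on the libraries of the 2 groups alone (adjusted p = 0.0763). An antisense gene, EHMT2-AS1, shares 592 bases or 8.12% of the exon length of EHMT2, and since the strand setting of the counting is not given in the sources used here, its reads may be included. EHMT1, the partner of EHMT2 in the same enzyme complex, stood at -0.13 with sgEZH2-1 (log2 fold change, adjusted p = 0.216) and -0.06 with sgEZH2-2 (adjusted p = 0.663).

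DNMT1 (chromosome 19, 10133345 to 10231286, minus strand), the maintenance DNA methyltransferase, was at 201, 220 and 210 CPM with sgEZH2-1 and 214, 222 and 214 CPM with sgEZH2-2, against 234 and 212 CPM in Control. The groups overlapped, and the first control was the highest library. The log2 fold change was -0.09 with sgEZH2-1 (-0.22 to 0.05, adjusted p = 0.339 in edgeR) and -0.04 with sgEZH2-2 (-0.17 to 0.09, adjusted p = 0.741). UHRF1, which brings DNMT1 to newly copied DNA, had a log2 fold change of 0.14 with sgEZH2-1 (adjusted p = 0.397) and 0.11 with sgEZH2-2 (adjusted p = 0.631).

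DNMT3A (chromosome 2, 25227855 to 25342590, minus strand), a de novo DNA methyltransferase, was at 9.73, 10.6 and 10.7 CPM with sgEZH2-1 and 12.9, 13.9 and 12.1 CPM with sgEZH2-2, against 10.4 and 9.91 CPM in Control. The sgEZH2-2 libraries were above all other libraries, and the sgEZH2-1 libraries overlapped the controls. These levels rest on 126, 155 and 153 counts with sgEZH2-1 and 187, 177 and 159 counts with sgEZH2-2, against 146 and 152 in Control. The guides differed, with a log2 fold change of -0.33 for sgEZH2-1 over sgEZH2-2 (SE 0.10, -0.54 to -0.11, adjusted p = 0.0386 in edgeR). With sgEZH2-2 the level was 128% of Control and the log2 fold change 0.36 (0.11 to 0.60, adjusted p = 0.0756), and with sgEZH2-1 it was 0.03 (-0.22 to 0.28, adjusted p = 0.877). The difference between the guides kept its call in 5 of 13 alternatives and lost it in DESeq2 (adjusted p = 0.130), without the filter on low counts (adjusted p = 0.05003) and without any single guide library (adjusted p over these 6 fits was 0.0599 to 0.148). Without the first control it kept the call, and likewise without the second.

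DNMT3B (chromosome 20, 32762385 to 32809356, plus strand), the other de novo enzyme, was at 16.8, 16.2 and 17.5 CPM with sgEZH2-1 and 16.1, 17.9 and 17.8 CPM with sgEZH2-2, against 19.8 and 16.9 CPM in Control. The groups overlapped, with log2 fold changes of -0.12 (-0.34 to 0.10, adjusted p = 0.429 in edgeR) and -0.09 (-0.31 to 0.14, adjusted p = 0.674). In CPM the first control stood apart above the other 7 libraries.

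**Figure D4:**
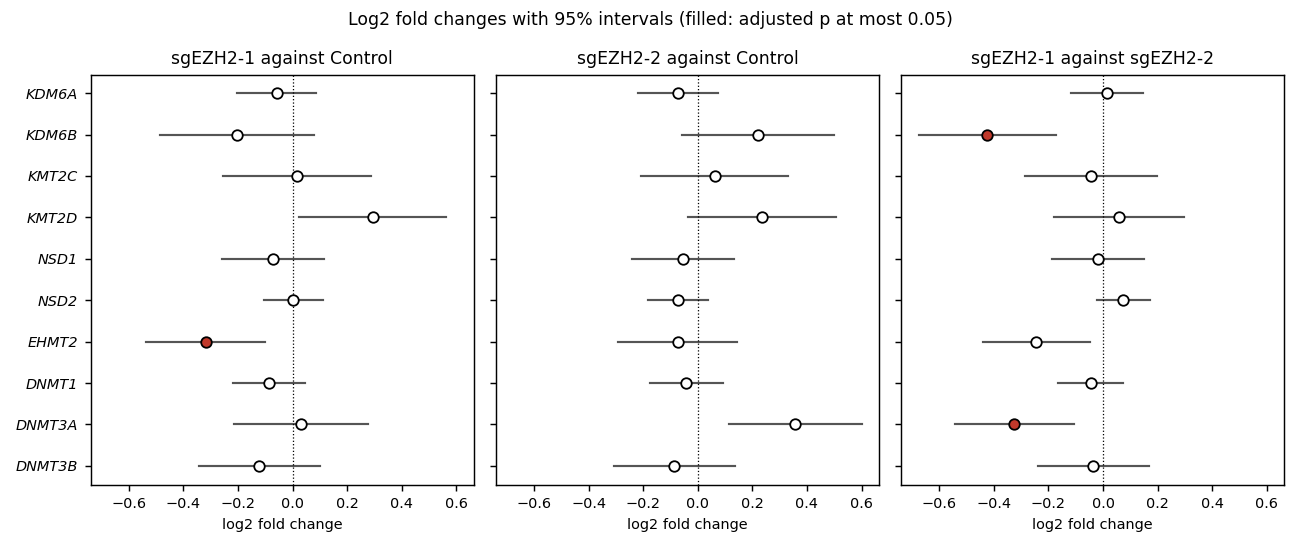
Log2 fold change of each gene (points) with its 95% interval (bars) in 3 comparisons, where filled points have an adjusted p of at most 0.05. EHMT2 is filled with sgEZH2-1 against Control, none is filled with sgEZH2-2 against Control, and KDM6B and DNMT3A are filled between the guides.

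Separation of the CPM ranges was counted beside its share among all tested genes. The sgEZH2-1 libraries did not overlap Control in 3 of 10 (KDM6A, KMT2D and EHMT2), where this was so for 48% of all genes (23.7% higher and 24.3% lower). The sgEZH2-2 libraries did not overlap Control in 4 of 10 (KDM6A, KDM6B, NSD2 and DNMT3A), beside 39.7% of all genes (19.3% higher and 20.5% lower). The guides did not overlap each other in 4 of 10 (KDM6B, NSD2, EHMT2 and DNMT3A), beside 42.2% (21% higher and 21.2% lower). With the guides pooled, KDM6A alone did not overlap Control, beside 19.9% of all genes (10.2% higher and 9.78% lower).

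Other genes of histone and DNA methylation were read from lists of enzymes, partners and the supply of methyl groups. Their counts stand beside 11.3% of all genes called higher and 9.51% lower with sgEZH2-1, and 6.18% higher and 2.5% lower with sgEZH2-2. Among 24 other histone demethylases, 3 fell and 0 rose with sgEZH2-1, and 1 fell and 0 rose with sgEZH2-2 (median log2 fold changes -0.11 and -0.05, beside -0.01 and 0.00 over all genes). PHF8, which removes methyl groups from H3K9 and from lysine 20 of histone H4, was at 64.1, 63.9 and 64.9 CPM with sgEZH2-1 and 68.2, 69.5 and 69.5 CPM with sgEZH2-2, against 81.0 and 81.2 CPM in Control. All 6 guide libraries were below both controls with a clear gap. Lying below both controls, by any gap, was so for 9.78% of all tested genes. The log2 fold change of PHF8 was -0.33 with sgEZH2-1 (adjusted p = 0.00177 in edgeR) and -0.23 with sgEZH2-2 (adjusted p = 0.0255). Pooling the guides gave -0.28 (adjusted p = 0.0313). PHF8 was the only gene of the enzyme, partner and cell-cycle lists, the 10 enzymes included, that was called with the guides pooled. Of all tested genes 4.36% were called in that comparison, 0.594% as lower. KDM1A, which demethylates H3K4, fell with sgEZH2-1 (-0.26, adjusted p = 0.0117), as did KDM3A, an H3K9 demethylase (-0.29, adjusted p = 0.0165); KDM4C, also of H3K9, was at -0.27 (adjusted p = 0.0525).

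Among 15 genes of the KMT2 family and its complexes, KMT2D not included, 1 fell and 0 rose with each guide. It was MEN1, the menin scaffold, with sgEZH2-1 (-0.37, adjusted p = 0.0219 in edgeR) and RBBP5, a core subunit, with sgEZH2-2 (-0.26, adjusted p = 0.0497). KMT2A and KMT2B, paralogs of KMT2C and KMT2D, had 0.07 (adjusted p = 0.738) and 0.02 (adjusted p = 0.926) with sgEZH2-1, and 0.07 (adjusted p = 0.791) and 0.11 (adjusted p = 0.585) with sgEZH2-2. KMT2E and the core subunit WDR5 had -0.13 and 0.03 with sgEZH2-1, and 0.01 and -0.14 with sgEZH2-2. Of 6 other methyltransferases of H3K36 and lysine 79, SMYD2 alone passed, rising with sgEZH2-1 (0.33, adjusted p = 0.0230), and 0 passed with sgEZH2-2. NSD3, the paralog of NSD1 and NSD2, was at -0.14 (adjusted p = 0.149) and -0.15 (adjusted p = 0.202), and SETMAR and DOT1L were at -0.02 and 0.0028 with sgEZH2-1, and at 0.24 and 0.22 with sgEZH2-2.

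Of 12 other H3K9 methyltransferases and partners, EHMT2 not among them, 0 passed with either guide. The smallest adjusted p of the 12 was that of SETDB1 with sgEZH2-1 (-0.27, adjusted p = 0.0522 in edgeR). The heterochromatin proteins CBX3 and CBX1 were at 0.14 and -0.04 with sgEZH2-1, and at 0.08 and -0.14 with sgEZH2-2. Of 3 enzymes for lysine 20 of H4, KMT5A fell with sgEZH2-2 (-0.27, adjusted p = 0.0249), while KMT5B and KMT5C passed with neither guide. Of 16 tested partners of DNA methylation, UHRF2 fell with sgEZH2-1 (-0.25, adjusted p = 0.0244) and 0 passed with sgEZH2-2. The TET enzymes, which oxidise methylated cytosine, had -0.21 (TET1), 0.11 (TET2) and -0.0009 (TET3) with sgEZH2-1, and 0.37, -0.02 and -0.08 with sgEZH2-2. TET1 was low, at 1.82 CPM with sgEZH2-1, 2.73 with sgEZH2-2 and 2.11 in Control, and was not called (adjusted p = 0.606 and 0.426 in edgeR). TDG, a glycosylase that acts after the TET enzymes, was at 0.22 (adjusted p = 0.0640) and -0.05. GADD45B and GADD45A were at 0.07 and 0.02 with sgEZH2-1, and at 0.27 and -0.24 with sgEZH2-2.

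Of 9 tested protein arginine methyltransferase genes, 1 rose and 2 fell with sgEZH2-1, and 0 rose and 2 fell with sgEZH2-2. PRMT2 fell with both guides (-0.23, adjusted p = 0.0164, and -0.21, adjusted p = 0.0475, in edgeR). Both guides were set against the same controls, so the 2 calls are not independent. With the guides pooled PRMT2 was at -0.22 and was not called (adjusted p = 0.0581 in edgeR). PRMT3 rose with sgEZH2-1 (0.34, adjusted p = 0.0163) and PRMT7 fell (-0.38, adjusted p = 0.0404), while PRMT5 fell with sgEZH2-2 (-0.27, adjusted p = 0.0195). Of 14 tested genes of the methionine cycle, which makes the methyl donor S-adenosylmethionine, 2 rose and 2 fell with sgEZH2-1. NNMT, which uses that donor to methylate nicotinamide, passed the test as higher with sgEZH2-1 (adjusted p = 0.00287), but only through sgEZH2-1, where it is high, did it pass the filter on low counts, so a difference was built in. It had 44 counts over the sgEZH2-1 libraries and 3 over Control, a ratio of 10.3 in counts per library total with an exact 95% counting interval of 3.30 to 51.9. With sgEZH2-2 it had 16 counts, a ratio of 3.89 (1.11 to 20.8), and did not pass in edgeR (adjusted p = 0.127). Both intervals cover counting noise alone. Libraries within a group differed by more than that, so the intervals may be too narrow. SHMT1 fell with sgEZH2-1 (-0.40, adjusted p = 0.00374) and MTHFD2 rose (0.20, adjusted p = 0.0205), and MAT2A, which makes S-adenosylmethionine, fell with sgEZH2-2 (-0.21, adjusted p = 0.0151) as the 1 called gene of 14.

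**Figure D5:**
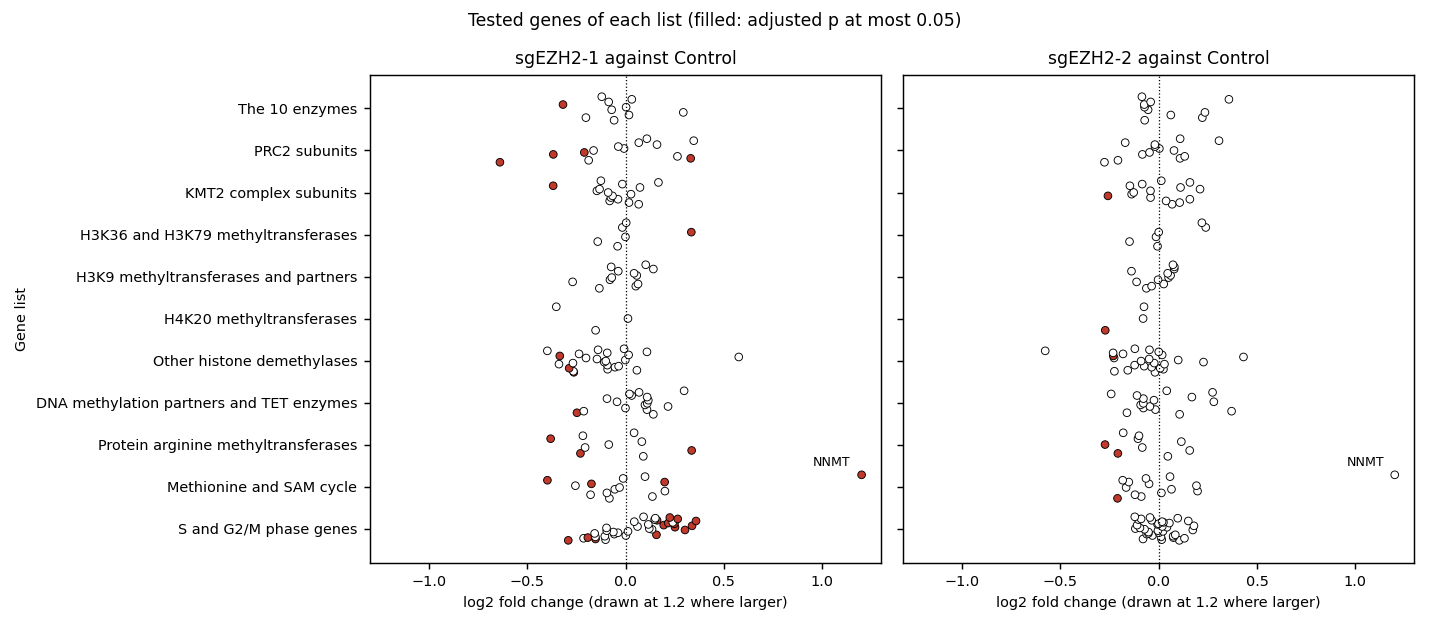
Log2 fold change of every tested gene in each list, one point per gene, with sgEZH2-1 (left) and sgEZH2-2 (right) against Control; filled points have an adjusted p of at most 0.05. Most points lie near 0, PHF8 and PRMT2 are filled in both panels, and NNMT is drawn at the right edge because its values exceed the drawn range. Both panels use the same controls, and PRMT2 was not called with the guides pooled. NNMT had only 3 control counts.

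Of 35 genes of the S and G2/M phases, 11 rose and 3 fell with sgEZH2-1, where 11.3% of all genes were called higher and 9.51% lower, with a median of 0.09 beside -0.01 over all genes. MCM2, a replication helicase subunit chosen after its value was seen, was among the falls (-0.29, adjusted p = 0.0216 in edgeR). CDC20, CENPE, BUB1 and MKI67, which serve mitosis or mark cycling cells, rose by 0.26, 0.36, 0.25 and 0.34. The called genes also included MCM4, MCM6, RRM2 and CCNE2, which act in or before S phase. With 3 falls in all, these did not all fall, so the genes named here do not stand for their phases. With sgEZH2-2, 0 of 35 passed in edgeR. The summed level of the 35 genes was 9518 to 9991 CPM with sgEZH2-1, 9411 to 9575 with sgEZH2-2 and 9291 to 9556 in Control. Their part in the values of the 10 enzymes was not tested.

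The genes most like KDM6B over the 8 libraries, by the root mean square difference of log2 CPM after each gene's mean was taken off, were MYCL (0.0465), H2BC12 (0.0582) and ABCB9 (0.0635), among 12303 genes with a mean of at least 1 CPM. Between the guides they had log2 fold changes of -0.46, -0.34 and -0.43 for sgEZH2-1 over sgEZH2-2. For DNMT3A they were NPTXR (0.0355), GSE1 (0.0468) and ZFP41 (0.0506), with -0.29, -0.30 and -0.35. These genes were picked for likeness over the same libraries, so a similar difference between the guides was built in. MYCL rests on 45 to 80 counts per library. H2BC12 is 1 of several near-identical histone genes, so its count is uncertain.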

How the data were processed

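RNA of 8 libraries was prepared with a stranded mRNA kit, per the labels' protocols. The authors deposited 1 table of raw read counts per gene, with 0 unused columns of library values and 0 unnamed genes; FastQC, STAR, DESeq and build hg38 are named, per the submitters' processing notes. For versions, counting tool, annotation and strand setting: not given in the sources used here. The columns name groups and no replicate number, so libraries are numbered by table order within a group.

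CPM were computed on totals scaled by TMM. Genes were kept by filterByExpr (minimum count 10). edgeR 4.0.16 in R 4.3.3 fitted the 3 groups together; the pooled comparison used 2 levels, so that a difference between guides counts as spread. SEs and 95% intervals derive from the F statistic and cover 1 gene at a time. DESeq2 1.42.0 was an alternative. The code was tested on simulated data. Exon lengths and coordinates (1-based) are from GENCODE release 29.

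The rule for named genes took all 10 members, EZH2, up to 4 genes of each list with the smallest adjusted p over both guides, paralogs of members, and the 3 genes most like each of the 2 members whose group means lay farthest apart. The members and lists were chosen with earlier results of these data known; the long-transcript set and the EZH2 ratios were chosen after values were seen. The libraries differed from each other by more than counting noise in every pair within a group (chi-square per degree of freedom 2.14 to 9.60).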

Additional observations from a re-analysis of the deposited data

Results flagged for a closer look

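The difference between the guides was tested directly, and it passed for 2 of the 10 genes, each lower with sgEZH2-1 than with sgEZH2-2. Of all tested genes 21.9% were called in this comparison, so 2 of 10 is near the background share. For KDM6B the log2 fold change of sgEZH2-1 over sgEZH2-2 was -0.42, with means of 25.1 ± 3.90 and 33.7 ± 1.60 CPM (SD, n = 3 each). For DNMT3A it was -0.33, with means of 10.3 ± 0.538 and 13.0 ± 0.900 CPM (SD, n = 3 each). Neither gene passed against Control with either guide.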

How the results depend on the processing

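Leaving out 1 library moved the genes called over a range of 1373 to 2591 with sgEZH2-1 (2726 with all), 521 to 1365 with sgEZH2-2 (1139), 1521 to 2995 between the guides (2874) and 145 to 509 with the guides pooled (572). Counts moved by over 1.5 times as follows. With sgEZH2-1 there were 1373 without the first control and 1804 without the second sgEZH2-1 library. With sgEZH2-2 there were 521 and 579 without the first or the second control, and 660 and 688 without the second or the third sgEZH2-2 library. Between the guides there were 1691 without the second sgEZH2-1 library, and 1521 and 1572 without the second or the third sgEZH2-2 library. Pooled, there were 163 and 145 without the first or the second control. The members called ran from 0 to 2 with sgEZH2-1 and from 0 to 2 between the guides, and stayed at 0 for sgEZH2-2 and the pooled comparison. As the mean of both guides in the fit of 3 groups, 1612 genes were called and still 0 members. On the 2 groups alone 0 members were called with sgEZH2-1. Between the guides 1 member was called with DESeq2 and 1 with no filter on low counts. Rises made up more of the calls when library totals alone were used (899 rises and 197 falls with sgEZH2-2, against 811 and 328).

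Of 200 member values under other settings that kept all libraries, 195 kept their direction and side of the threshold, and 3 lost a call. The other 2 changed sign near 0: KDM6A between the guides was -0.0017 on library totals only, and NSD2 with sgEZH2-1 was -0.0012 without the filter. Of 320 member values with 1 library left out, 27 changed sign, 0 of them past the threshold; 13 lost a call and 2 gained one. The log2 fold changes that changed sign ranged, with sgEZH2-1, over -0.044 to 0.12 (KMT2C), -0.12 to 0.028 (NSD1), -0.014 to 0.024 (NSD2), -0.0020 to 0.073 (DNMT3A) and -0.23 to 0.0014 (DNMT3B). With sgEZH2-2 they ranged over -0.051 to 0.13 (KMT2C), -0.16 to 0.022 (EHMT2), -0.11 to 0.039 (DNMT1) and -0.20 to 0.039 (DNMT3B). Between the guides they ranged over -0.031 to 0.034 (KDM6A), -0.11 to 0.078 (KMT2C), -0.046 to 0.16 (KMT2D) and -0.065 to 0.070 (NSD1). With the guides pooled they ranged over -0.10 to 0.16 (KDM6B), -0.021 to 0.11 (KMT2C), -0.13 to 0.016 (DNMT1) and -0.22 to 0.021 (DNMT3B). The causes were not tested. With 1 control left, that library is assumed to vary like the other groups. No paired analysis was possible because the columns carry no replicate numbers.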
